A study of Mus musculus with 6 samples.

Results

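The cathepsins are the main proteases of the lysosome, and 10 of the 23420 genes in a count table from mouse retina belong to the set described here: Ctsa, Ctsb, Ctsc, Ctsd, Ctsf, Ctsh, Ctsk, Ctsl, Ctss and Ctsz. They were taken from the table by gene symbol, in a set drawn up when earlier results of these data were known. Messenger RNA was sequenced from 6 retina libraries in 3 groups of 2 biological replicates, to ask how bright light alters retinal transcripts and what minocycline, a tetracycline antibiotic that dampens microglial activation, does to that response. According to the sample labels all mice were of the strain CD1. Control retinas had no treatment, light-exposed retinas were taken 4 days after 1 h of light at 10000 lux, and the minocycline-treated retinas had the same light exposure plus intraperitoneal minocycline at 45 mg/kg every day for 4 days. The published methods instead name BALB/cJ mice of both sexes, a brighter light and 1 more day of injections. They also give 2 injections a day on the first 2 days, so strain, light dose and injection schedule are uncertain. Neither source names a vehicle injection for the control or light-exposed libraries, so minocycline cannot be told apart from the injections. The labels give no age, which the published methods state as a range in weeks. They give no sex either and do not say whether retinas were pooled.

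Cathepsins break down proteins that reach the lysosome by endocytosis, phagocytosis or autophagy. They fall into separate chemical classes: cathepsin D is an aspartic protease, cathepsin A is a serine carboxypeptidase, and cathepsins B, C, F, H, K, L, S and Z are cysteine proteases of the papain type. In the retina, the pigment epithelium uses cathepsin D to digest shed photoreceptor outer segments, and microglia and invading macrophages, which clear dying photoreceptors after light damage, are rich in cathepsins. The cysteine cathepsins are held in check by cystatins and stefins, and cathepsin S trims the invariant chain on the way to antigen presentation by MHC class II.

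Each library held between 15205930 counts in control 1 and 22856922 counts in minocycline A. Both libraries of the minocycline group bear 1 and the same replicate name in the table, so they are called A and B here. A gene without a count could reach 3 counts by chance, which is a CPM of 0.131 to 0.214 depending on the library (CPM, the count scaled to a fixed library size), a limit that covers counting error only. The lowest count of any member was 36. Control 1 held 77778 counts of Xist and 11 counts of Y-linked genes, whereas each of the other 5 libraries held at least 6532 counts of Y-linked genes, so by these transcripts 1 control differed in sex from all other libraries. The minocycline libraries also contained transcripts of other eye tissues. The summed level of 5 pigment cell genes was 304 CPM in minocycline A and 1376 CPM in minocycline B against 15.8 to 71.7 CPM elsewhere, and that of 5 corneal epithelial genes was 178 and 248 CPM against 0.843 to 14.0 CPM elsewhere. The p-values rest on the spread between 2 libraries per group, combined with the spread of all tested genes. In fits with a library left out, 1 group has only 1 library. Since whole retina was sequenced, more cells of a type and more RNA per cell cannot be told apart.

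In control retinas, cathepsin D was the most abundant member. Levels were compared between genes per kilobase of the principal transcript, and on this scale Ctsd reached 133 ± 19.0 CPM per kilobase (mean ± SD, n = 2). Ctsf followed with 84.5 ± 5.26, Ctsb with 60.1 ± 9.16 and Ctsl with 53.9 ± 11.9. Ctsb and Ctsl lay within their spread of each other. Ctsa had 23.4 ± 0.175 CPM per kilobase, and Ctsz and Ctss had 12.3 ± 1.21 and 11.6 ± 0.162, which also lay within their spread of each other. The low end was formed by Ctsh with 4.08 ± 1.10, Ctsc with 2.74 ± 0.250 and Ctsk with 2.38 ± 0.968 CPM per kilobase, the last 2 again within their spread. Counting all exons of a gene in place of the principal transcript would lower the share of Ctsl in the summed control level from 13.8% to 4.89%, below that of Ctsa, which was 6.67%. The order in the minocycline-treated retinas by principal transcript was close to this one, with Ctsd at 171 ± 23.8 and Ctsl, Ctsf and Ctsb between 82.4 and 85.8 CPM per kilobase. The length of Ctsl is 1971 bases by principal transcript and 6168 bases over all exons, so its place there also rests on the length used. In light-exposed retinas Ctsd stood at 1444 ± 1071 and Ctsb at 280 ± 184 CPM per kilobase, while Ctsf had moved from the second to the sixth place with 73.3 ± 3.72.

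**Figure D1:**
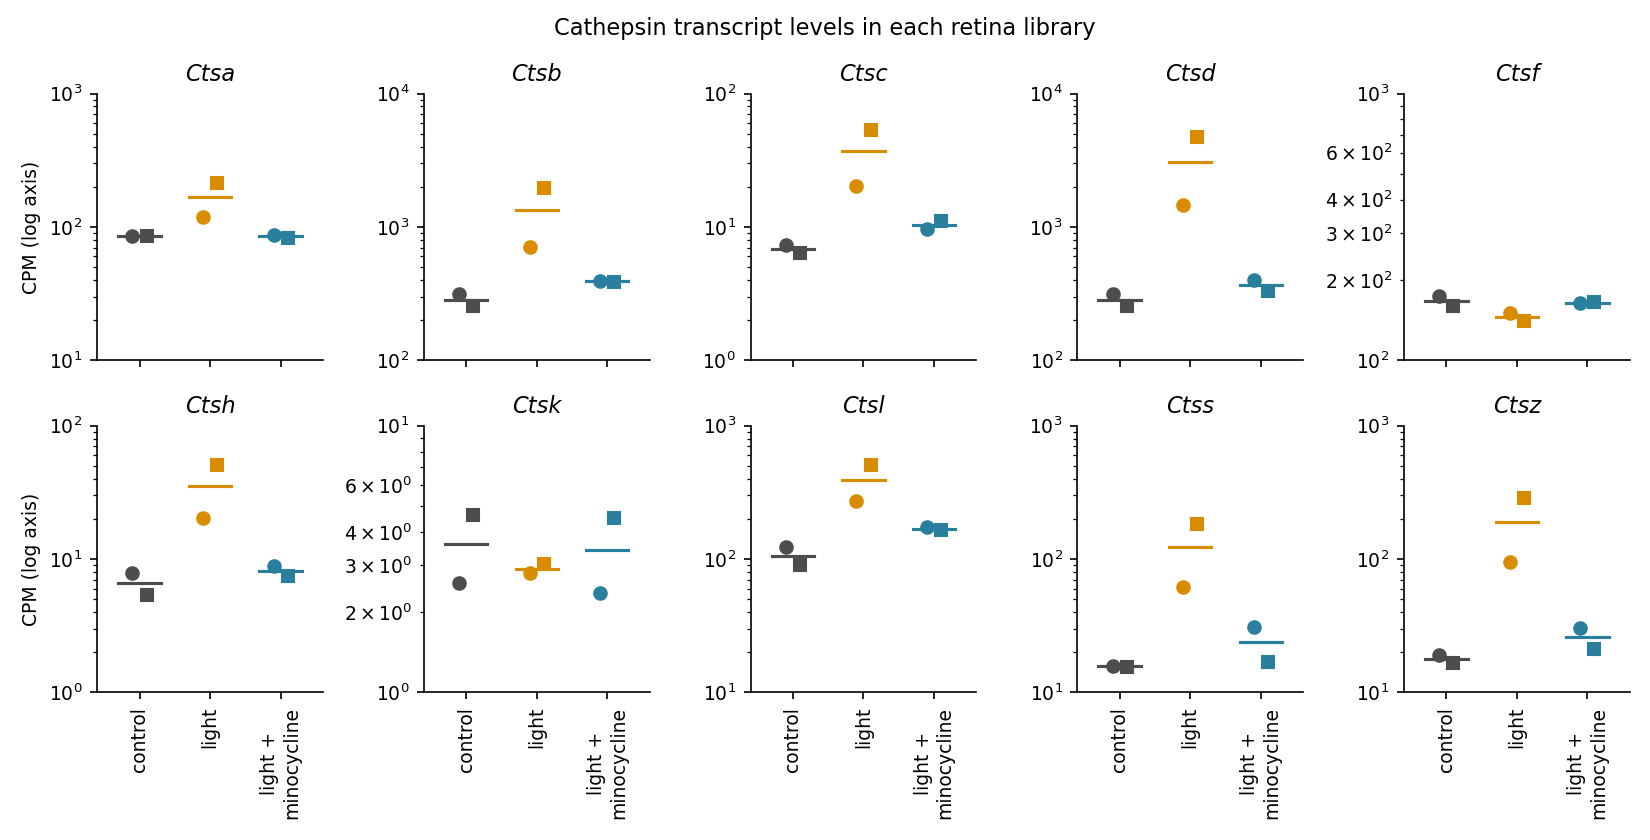
Level of each cathepsin in CPM on a log axis in the 3 groups; circles are replicate 1 or minocycline A, squares are replicate 2 or minocycline B, and lines are group means. In 8 panels both light-exposed libraries lie above all 4 other libraries, and the square lies above the circle, whereas Ctsf spans only 140 to 175 CPM and the groups overlap for Ctsk.

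Summed over the 10 members, cathepsin transcripts made up 0.0979% and 0.0833% of all counts in the control libraries, 0.315% and 0.902% in the light-exposed libraries and 0.130% and 0.114% in the minocycline libraries. The make-up of this sum shifted toward cathepsin D. Per kilobase, Ctsd contributed 34.8% and 33.7% in the controls, 56.4% and 65.0% after light exposure, and 36.1% and 33.3% with minocycline. Ctsf contributed 21.0% and 22.8% in the controls but 6.23% and 2.08% after light exposure, and 15.8% and 17.9% with minocycline. Ctsb varied little, from 12.1% to 17.5% over the 6 libraries. Without division by length, Ctsd and Ctsb were nearly level in the controls at 28.9% and 29.1% of the cathepsin counts, so their order there rests on the length used.

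**Figure D2:**
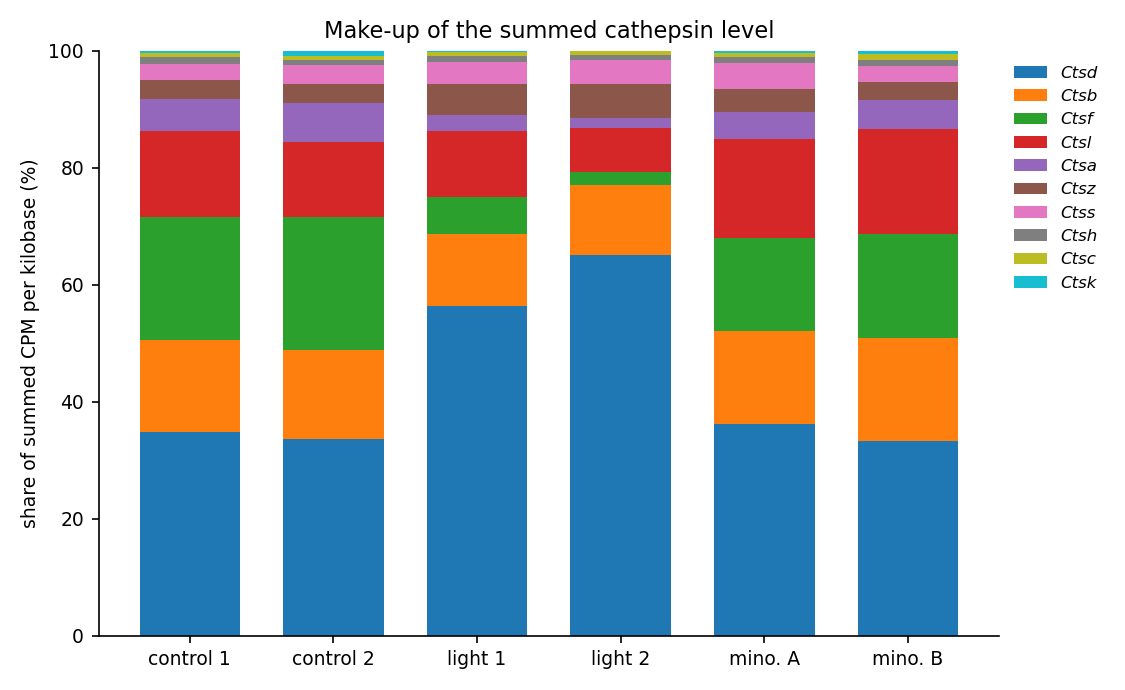
Share of each cathepsin in the summed CPM per kilobase of the 10 members, in percent, for each library; mino. stands for light with minocycline. Ctsd takes 33.3% to 36.1% in the control and minocycline libraries and 56.4% and 65.0% in the light-exposed libraries, where the segment of Ctsf is narrowest.

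Light exposure was compared with control first. Cathepsins D and L rose, and 6 further members were higher in both light-exposed libraries than in both controls without passing the test. Ctsd, which starts the breakdown of many proteins in the lysosome, had 311 and 254 CPM in the controls and 1461 and 4684 CPM after light exposure. This was a 10.9-fold increase, or 3.45 ± 0.64 on the log2 scale (± SE; edgeR quasi-likelihood test with Benjamini-Hochberg adjustment over 14349 genes, adjusted p = 0.0418). Both light-exposed libraries were far above both controls, and light 2 was 3.20 times as high as light 1. Ctsl, a broad endopeptidase, had 123 and 89.6 CPM in the controls and 272 and 506 CPM after light exposure, a log2 difference of 1.88 ± 0.33 (edgeR adjusted p = 0.0246). The light-exposed libraries again lay above both controls, with a smaller gap of 1.86 times between them. Both calls were lost when either control library was left out, with adjusted p of 0.157 and 0.211 for Ctsd and 0.135 and 0.218 for Ctsl in edgeR, with log2 differences from 1.67 to 3.59. The call for Ctsd was also lost without a filter on low counts (edgeR adjusted p = 0.152) and when every library had to hold 10 counts (0.0519), and its size rests on the light-exposed pair, being 16.7-fold without light 1 and 5.20-fold without light 2.

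Among the other endopeptidases of the cysteine class, Ctss, which remains active at neutral pH and is typical of microglia and macrophages, had 15.9 and 15.6 CPM in the controls and 62.3 and 184 CPM after light exposure. Its log2 difference was 2.97 ± 0.70 (edgeR adjusted p = 0.114). The controls were nearly identical and the light-exposed libraries differed 2.95 times from each other. Ctsb, which acts both as an endopeptidase and as a carboxydipeptidase, had 316 and 254 CPM in the controls and 711 and 1948 CPM after light exposure, a log2 difference of 2.23 ± 0.53 (edgeR adjusted p = 0.0715). It too was higher in both light-exposed libraries without passing the threshold.

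The exopeptidases had the same arrangement of libraries. Ctsz, a carboxypeptidase, had 19.0 and 16.5 CPM in the controls and 95.0 and 286 CPM after light exposure, a log2 difference of 3.43 ± 0.73 that did not pass (edgeR adjusted p = 0.0971). Ctsc, the dipeptidyl peptidase that activates granule serine proteases of immune cells, had 7.28 and 6.40 CPM against 20.3 and 53.6 CPM. Ctsh, an aminopeptidase, had 7.85 and 5.34 CPM against 20.2 and 50.9 CPM. Their log2 differences of 2.45 ± 0.53 and 2.44 ± 0.53 had edgeR adjusted p of 0.0587 and 0.0583. Ctsa, whose product also protects beta-galactosidase and neuraminidase in a lysosomal complex, had the smallest difference of the 8 members with higher levels, from 84.7 and 85.6 CPM to 119 and 213 CPM, or 0.97 ± 0.26 on the log2 scale (edgeR adjusted p = 0.0532).

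The sizes of these differences rest on the light-exposed pair, as for Ctsd. Without light 2 the fold change moved from 10.8 to 5.38 for Ctsz, from 7.86 to 3.97 for Ctss, from 4.69 to 2.51 for Ctsb, from 5.45 to 2.98 for Ctsc and from 5.44 to 3.08 for Ctsh.

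Ctsf and Ctsk stood apart from the other 8. Ctsf, a cysteine protease with an unusually long propeptide, had 175 and 160 CPM in the controls and 150 and 140 CPM after light exposure, so that both light-exposed libraries lay slightly below both controls. Its log2 difference was -0.20 ± 0.15 (edgeR adjusted p = 0.411) and changed sign to 0.04 when libraries were scaled by total counts. Ctsk, the collagen-degrading protease of osteoclasts, had 2.57 and 4.64 CPM in the controls and 2.80 and 3.03 CPM after light exposure, a log2 difference of -0.30 ± 0.39 (edgeR adjusted p = 0.651). The light-exposed libraries lay between the controls. Without control 2 its log2 difference was 0.19, so no direction can be given for Ctsk.

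By count, 2 of 10 members rose, against 7.52% of all tested genes. None fell, while 3.8% of all tested genes did. Ctsd alone also reached a log2 fold change of 2 in size, against 2.89% of tested genes. At an unadjusted edgeR p under 0.05, 8 members were higher (16.5% of tested genes), and the same number were higher with DESeq2 at an adjusted p under 0.05 (8.01%) and in an edgeR fit of all 6 libraries (5.57%). The groups did not overlap for 8 members that were higher (30.1% of tested genes) and for Ctsf, which was lower (30.8%). The count was 8 without light 1, where 14.5% of all tested genes were called in either direction, and 7 without light 2, where 3.42% were. It was 0 without either control, where only 4 genes of the whole table were called without control 1 and 57 without control 2. The median log2 difference of the 10 members was 2.34, against 0.0025 over all tested genes.

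**Figure D3:**
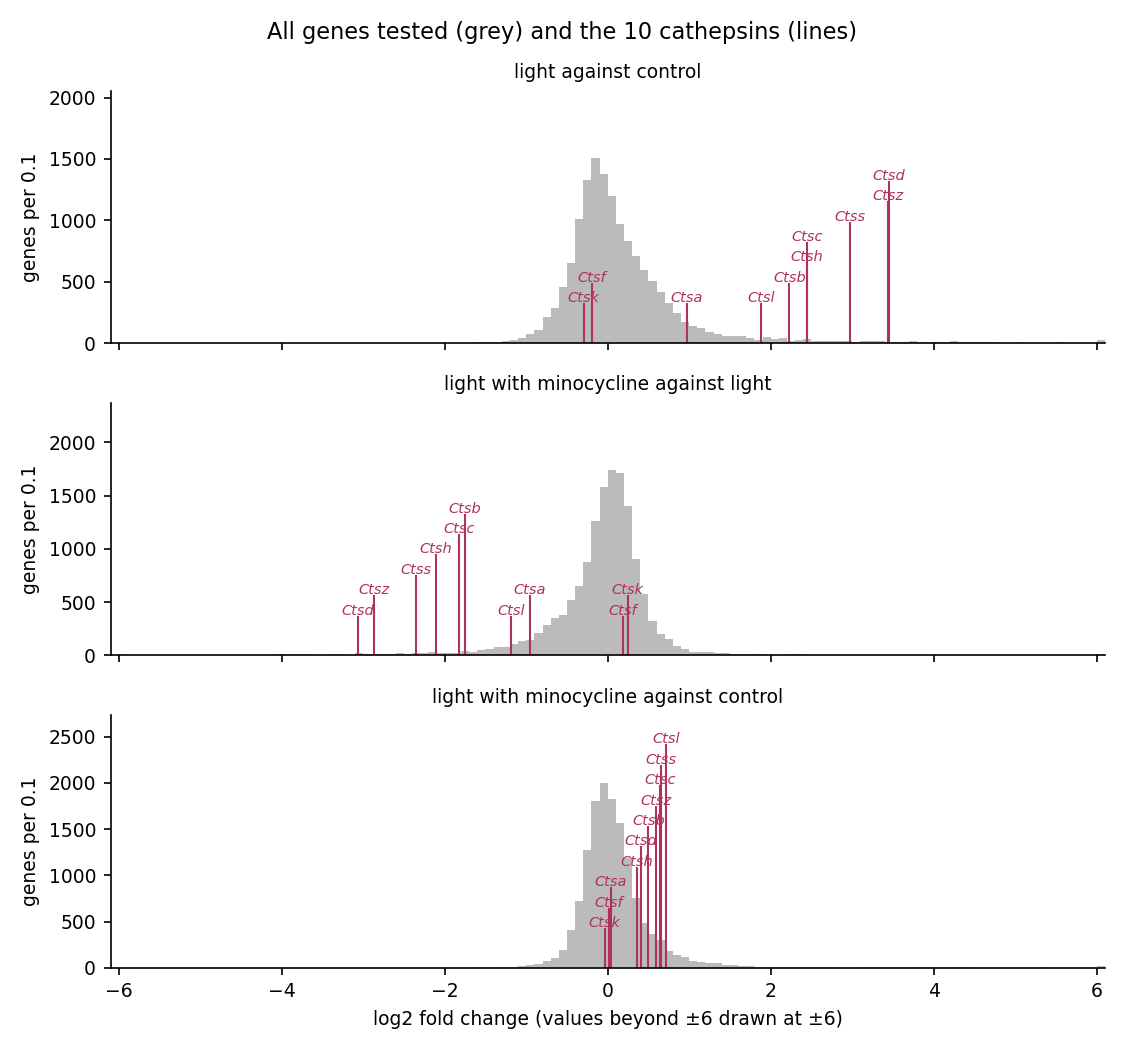
Histograms of the log2 fold change of all tested genes in bins of 0.1 for the 3 comparisons (grey) with lines at the 10 cathepsins; line height only separates the names. After light exposure 8 cathepsins lie between 0.97 and 3.45 while most genes lie near 0, with minocycline against light the same 8 lie between -3.06 and -0.96, and against control the 10 lie between -0.04 and 0.72.

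Minocycline was next compared with light exposure alone. No cathepsin passed the edgeR test, in a comparison in which 0.0407% of all tested genes were called lower. The level of 8 members was nevertheless lower in both minocycline libraries than in both light-exposed libraries, against 28.1% of tested genes. The same count was lower at an unadjusted edgeR p under 0.05 (12.1% of tested genes). DESeq2 called 7 lower at an adjusted p under 0.05 (4.98%), without Ctsb at an adjusted p of 0.0855, and an edgeR fit of all 6 libraries called 2 (2.4%). Without light 1, edgeR called 8 members lower, when 5.08% of all tested genes were called in either direction. Without light 2 it called 1, Ctsd, at an adjusted p of 0.0285, when 0.22% of tested genes were called. This comparison uses the same light-exposed libraries as the one with control, so the values are given side by side and their opposite signs are not separate evidence.

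Ctsd had 400 and 329 CPM with minocycline against 1461 and 4684 CPM after light alone, a log2 difference of -3.06 ± 0.58 (edgeR adjusted p = 0.0805). Ctsz had 30.5 and 21.3 CPM against 95.0 and 286 CPM, a log2 difference of -2.87 (edgeR adjusted p = 0.0875). Without light 2 these differences were -2.01 for Ctsd and -1.88 for Ctsz. Among the 10 members Ctsd and Ctsz had the largest differences in both comparisons. Ctss had 30.9 and 17.0 CPM with minocycline, and its log2 difference of -2.35 ± 0.58 had an edgeR adjusted p of 0.119. Minocycline A was higher than minocycline B for Ctss, and both lay below light 1 at 62.3 CPM.

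Ctsh had 8.88 and 7.46 CPM with minocycline, a log2 difference from light alone of -2.11 (edgeR adjusted p = 0.0933). Ctsc had 9.62 and 11.1 CPM and a log2 difference of -1.83 (edgeR adjusted p = 0.123). Ctsb had 396 and 386 CPM and a log2 difference of -1.75 (edgeR adjusted p = 0.125). The minocycline libraries lay close to each other for these genes. Without light 2 the log2 difference from light alone was -1.31 for Ctsh, -0.98 for Ctsc, -0.87 for Ctsb and -1.38 for Ctss. Ctsl had 174 and 164 CPM with minocycline and a log2 difference of -1.19 ± 0.29 (edgeR adjusted p = 0.0985). Ctsa had 87.7 and 82.0 CPM and a log2 difference of -0.96 ± 0.27 (edgeR adjusted p = 0.126). Ctsf had 163 and 165 CPM, above both light-exposed libraries by a log2 difference of 0.19 ± 0.13 (edgeR adjusted p = 0.470). Ctsk had 2.36 and 4.50 CPM, which spans the light-exposed values, and its log2 difference of 0.24 ± 0.41 turned to -0.31 without minocycline B. Transcripts of pigment cells, corneal epithelium, stroma and smooth muscle were most abundant in minocycline B, where 7 stroma genes summed to 175 CPM against 44.6 CPM in minocycline A and at most 17.7 CPM in the other libraries, and their part in the cathepsin values was not tested. The list of 6 pigment epithelium genes instead peaked in control 2, with 348 CPM against 139 CPM in control 1, 145 and 195 CPM after light exposure and 111 and 177 CPM in minocycline A and B, and its part was not tested either.

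**Figure D4:**
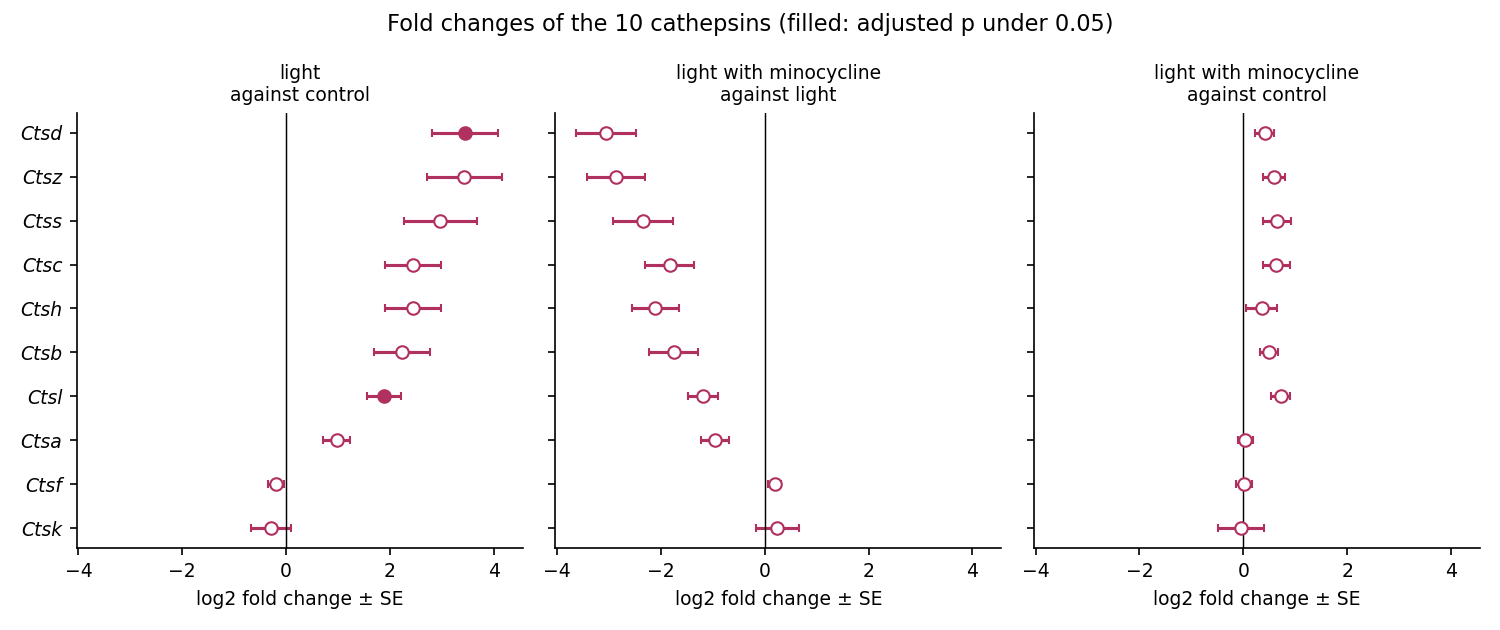
Log2 fold changes (points) with standard errors (bars) of the 10 cathepsins in the 3 comparisons, ordered by the difference between light and control; filled points have an edgeR adjusted p under 0.05. Ctsd and Ctsl are filled in the comparison of light with control, and no point is filled in the other panels.

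Against control, minocycline-treated retinas showed small differences in cathepsin levels. No member passed the edgeR test (0.162% of tested genes were called higher) or DESeq2 (1.16%). At an unadjusted edgeR p under 0.05, 5 members were higher, namely Ctsb, Ctsc, Ctsl, Ctss and Ctsz, against 5.39% of tested genes. The groups did not overlap for these and for Ctsd, 6 members that were higher, against 15.5% of tested genes. Ctsl had the largest log2 difference, 0.72 ± 0.19 (edgeR adjusted p = 0.287), with 174 and 164 CPM against 123 and 89.6 CPM. Without minocycline B, Ctss passed the test at an edgeR adjusted p of 0.0186 with a log2 difference of 0.97, when 3.33% of all tested genes were called in either direction. Without minocycline A its log2 difference was 0.15 and did not pass (edgeR adjusted p = 1.00). The median log2 difference of the 10 members was 0.45, against 0.021 over all tested genes.

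The distance of the minocycline libraries from control can be set against the distance between the light-exposed mean and the control mean. On this scale of CPM differences, 22.3% of the light-associated difference was present with minocycline for Ctsl, 11.6% for Ctsc, 10.1% for Ctsb and 7.67% for Ctss. For Ctsh, Ctsz and Ctsd it was 5.43%, 4.73% and 2.93%, and for Ctsa it was -0.37%, at the control level. The minocycline libraries gave similar values for Ctsl, 24.0% in A and 20.6% in B, and for Ctsb, 10.6% and 9.63%. They differed for Ctss with 14.1% and 1.19%, Ctsz with 7.39% and 2.06%, Ctsh with 7.88% and 2.98%, Ctsd with 4.22% and 1.65% and Ctsa with 3.11% and -3.85%, minocycline A being the higher in each case. For Ctsc the value was higher in B, at 14.0% against 9.25% in A. These percentages share their control and light-exposed libraries and carry the wide spread of the light-exposed pair, which by itself ran from 40.8% to 159% of the mean difference.

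The light-exposed libraries differed from each other in a graded manner across the family. Light 2 over light 1 was 3.20 for Ctsd, 3.01 for Ctsz, 2.95 for Ctss, 2.74 for Ctsb, 2.64 for Ctsc and 2.52 for Ctsh. It was 1.86 for Ctsl and 1.78 for Ctsa. For Ctsk and Ctsf it was 1.08 and 0.93. Across the 6 libraries, the 28 pairs among the 8 members other than Ctsf and Ctsk had Pearson correlations of log2 CPM between 0.908 and 0.998. Ctsf had correlations between -0.917 and -0.835 with these members, and Ctsk between -0.353 and -0.207. The libraries share depth and cell composition across genes and fall into groups, so these values describe likeness only.

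Most but not all listed transcripts of microglia and of Müller glia, the main glial cells of the retina, were also higher after light exposure. A list of 11 microglia and macrophage genes, among them C1qa, Tyrobp, Trem2 and Cd68, summed to 32.8 and 43.3 CPM in the controls, 362 and 1169 CPM after light exposure and 78.8 and 33.6 CPM with minocycline. All 11 were higher in both light-exposed libraries than in both controls (30.1% of tested genes), 3 of them past the edgeR test (7.52%), and the median log2 difference was 4.54. A second list of 7 genes typical of resting microglia, including Tmem119, P2ry12 and Cx3cr1, summed to 14.5 and 10.2 CPM in the controls, 48.1 and 123 CPM after light exposure and 20.5 and 10.9 CPM with minocycline. Some of these 7 entered the test only through their counts after light exposure, so no tally is given. P2ry12, with 59 and 41 counts in the controls and 134 and 326 after light exposure, rose by 1.73 ± 0.38 on the log2 scale (edgeR adjusted p = 0.0227), and Cx3cr1 by 3.82 ± 0.60 (edgeR adjusted p = 0.0282). Gpr34 had a log2 difference of 3.10 ± 0.66 and did not pass (edgeR adjusted p = 0.0558). Siglech had 18 and 16 counts in the controls and 21 and 36 after light exposure. Its groups overlapped, with a log2 difference of 0.30 ± 0.43 (edgeR adjusted p = 0.688). Of 6 Müller glia genes, 5 were higher in both light-exposed libraries than in both controls (30.1% of tested genes), and 2 rose (7.52%). These were Slc1a3 by 1.13 ± 0.19 and Apoe by 2.48 ± 0.47 on the log2 scale (edgeR adjusted p of 0.0124 and 0.0375). Glul, the most abundant of the 6, overlapped between the groups, with a log2 difference of 0.21 ± 0.24 (edgeR adjusted p = 0.602). Rlbp1 had a log2 difference of 0.49 ± 0.20 and did not pass (edgeR adjusted p = 0.139). This list summed to 2809 and 1871 CPM in the controls, 3404 and 4571 CPM after light exposure and 3604 and 2724 CPM with minocycline, and 3 of its genes were lower in both minocycline libraries than in both light-exposed libraries (28.1% of tested genes). All 7 rod genes listed, including Gnat1 and Nrl, were lower in both light-exposed libraries (30.8% of tested genes), with a median log2 difference of -0.70, and 1 of them, Nrl, fell past the test (3.8%). In the list of monocyte and neutrophil genes, no gene exceeded 27 counts in a library, and none had enough counts to be tested between light exposure and control. The part of any of these cell types in the cathepsin values was not tested.

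Relative to the 7 genes of resting microglia, the cathepsins separated into groups. The level of Ctss divided by the summed list was 1.10 and 1.53 in the controls, 1.29 and 1.49 after light exposure and 1.51 and 1.56 with minocycline. For Ctss this range of 1.10 to 1.56 compares with levels from 15.6 to 184 CPM in the same libraries. The genes of the list did not move alike. Their log2 differences between light and control included 0.30 for Siglech, 1.73 for P2ry12 and 3.82 for Cx3cr1. A ratio to the sum therefore does not describe the ratio to each gene. For Ctsz the ratio was 1.31 and 1.62 in the controls, 1.97 and 2.32 after light exposure and 1.49 and 1.95 with minocycline. For Ctsd it was 21.5 and 24.9 in the controls, 30.4 and 37.9 after light exposure and 19.6 and 30.04 with minocycline. The ratios of Ctsz and Ctsd were thus higher in both light-exposed libraries than in both controls, and those of Ctss overlapped. The ratio was lower after light exposure for Ctsb, with 21.8 and 25.0 in the controls and 14.8 and 15.8 after light, and for Ctsl, with 8.47 and 8.79 against 5.64 and 4.10. Ctsf had the widest difference of the abundant members, with 12.1 and 15.7 in the controls and 3.12 and 1.13 after light exposure.

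Against the 11 microglia and macrophage genes, every member had a lower ratio in both light-exposed libraries than in both controls, including Ctss with 0.486 and 0.360 against 0.172 and 0.157. Whether a ratio was higher, similar or lower after light exposure therefore depended on the marker list.

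**Figure D5:**
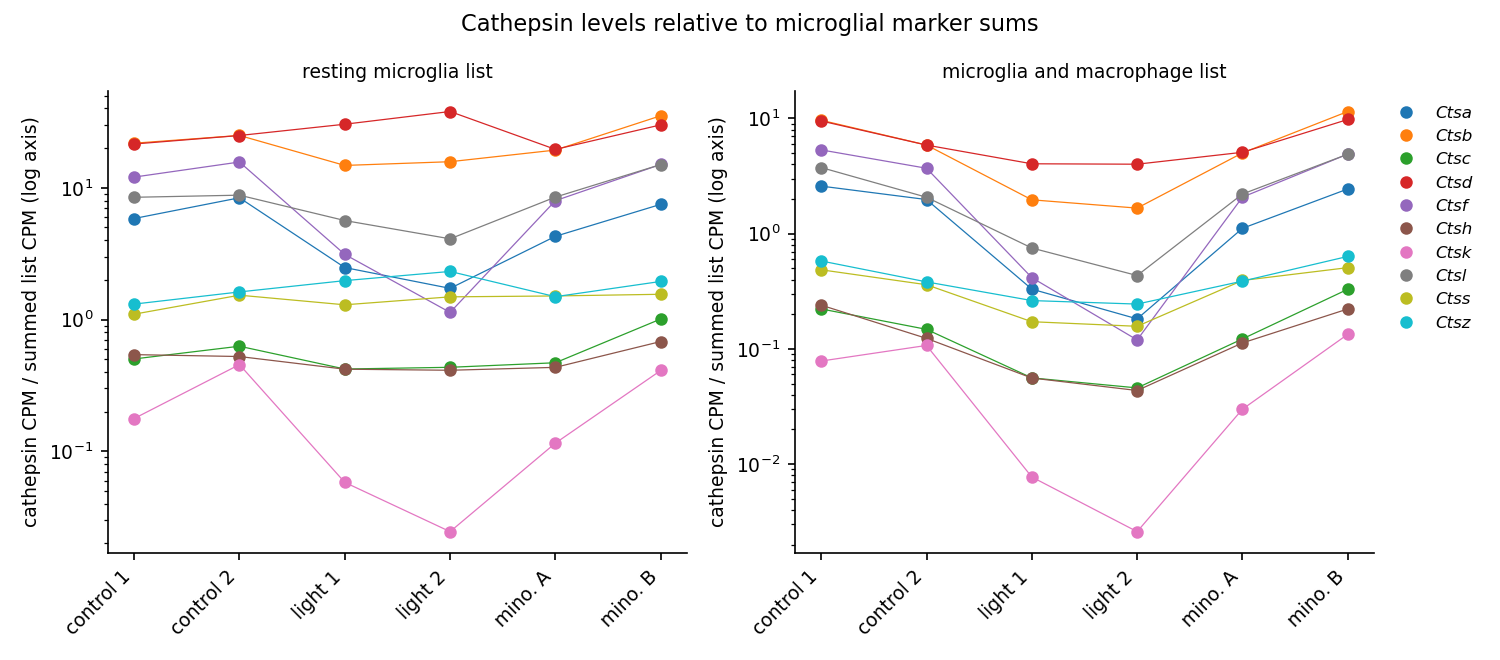
CPM of each cathepsin divided by the summed CPM of 7 resting microglia genes (left) or 11 microglia and macrophage genes (right), on a log axis, for each library; lines join the values of 1 gene, and mino. stands for light with minocycline. On the left Ctss stays between 1.10 and 1.56 while Ctsf lies at 12.1 and 15.7 in the controls and at 3.12 and 1.13 after light exposure, and on the right every gene is lowest in the light-exposed libraries.

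Further cathepsins were present in the table outside the 10 members. Ctse, an aspartic protease of immune and epithelial cells, had 1 and 3 counts in the controls, 70 and 254 counts after light exposure and 4 and 3 counts with minocycline. Ctso, a widely expressed cysteine protease, had 341 and 338 counts in the controls and 576 and 1053 after light exposure, a log2 difference of 0.81 ± 0.20 (edgeR adjusted p = 0.0303). Ctsg, the granule protease of neutrophils, had 0 counts in all 6 libraries, and Ctsw, of cytotoxic lymphocytes, had at most 4 counts. Ctse entered the test only through its counts after light exposure, so its counts are given without a p-value.

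Cystatins and stefins inhibit cysteine cathepsins. Cst7, an inhibitor of cathepsin C in immune cells, had 1 and 3 counts in the controls, 28 and 74 after light exposure and 9 and 0 with minocycline. It entered the test only through its counts after light exposure, so no p-value is given. Cst3, the most abundant cystatin here, had 9487 and 7181 counts in the controls and 8952 and 10339 after light exposure, a log2 difference of -0.21 ± 0.19 with overlapping groups (edgeR adjusted p = 0.500). Cstb, the cytosolic stefin B, had a log2 difference of 0.80 ± 0.24 (edgeR adjusted p = 0.0619).

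Partners of the cathepsins in the lysosome were examined next. Of 7 genes for processing and partner proteins, 1 rose after light exposure (7.52% of all tested genes did), Psap, which encodes the precursor of the saposins that is cut by cathepsin D, by 1.13 ± 0.26 on the log2 scale (edgeR adjusted p = 0.0278). Grn, whose product progranulin binds prosaposin and cathepsin D, had 418 and 479 counts in the controls, 1885 and 7411 after light exposure and 781 and 641 with minocycline, a log2 difference between light and control of 2.87 ± 0.74 (edgeR adjusted p = 0.130). Lgmn, the asparaginyl endopeptidase that matures several cathepsins, had a log2 difference of 0.85 ± 0.27 (edgeR adjusted p = 0.0899). The partners of cathepsin A differed from each other: Glb1 had a log2 difference of 1.98 ± 0.61 and Neu1 of 0.06 ± 0.15, and neither passed the edgeR test (adjusted p of 0.101 and 0.807).

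Genes for sorting enzymes to the lysosome and for its membrane and proton pump were examined as well. In the sorting list 1 of 7 rose, Scarb2, against 7.52% of all tested genes, and the median log2 difference was 0.062. In the list of membrane and pump genes 2 of 17 tested genes rose, Lamp2 and Atp6v0e, against the same 7.52%, with a median log2 difference of 0.16, and none fell. In this list 7 of 17 were higher in both light-exposed libraries than in both controls, against 30.1% of all tested genes. The largest differences did not pass the edgeR test: Cd63, a tetraspanin of late endosomes, had 172 and 171 counts in the controls and 589 and 1822 after light exposure, a log2 difference of 2.32 ± 0.52 (adjusted p = 0.0755), and Tcirg1, a pump subunit, had a log2 difference of 2.23 ± 0.57 (adjusted p = 0.0956). None of the 3 tested lysosomal regulators (Tfeb, Tfe3 and Mitf) passed the test, with log2 differences from -0.21 to 0.18. For the invariant chain and MHC class II genes, whose route cathepsin S serves, counts were low and several genes entered the test only through their counts after light exposure, so no tally is given. Cd74, the invariant chain, had 4 and 7 counts in the controls and 32 and 49 after light exposure. It is 1 of the genes that entered through light exposure only, so its counts are given without a p-value. H2-Ab1, a class II chain with more counts, had 37 and 22 in the controls and 106 and 150 after light exposure (edgeR adjusted p = 0.0213). The serine protease list of neutrophils, whose products cathepsin C activates, had too few counts for a test, at most 19 in a library. With minocycline against light alone, none of the genes in these lists passed the edgeR test, although 4 of 7 processing and partner genes and 4 of 17 membrane and pump genes were lower at an unadjusted edgeR p under 0.05, against 12.1% of all tested genes.

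The genes of cathepsins K and S are direct neighbours. In the mouse genome GRCm38 (GENCODE M21), Ctsk lies at chr3:95499256-95509362 and Ctss at chr3:95526786-95556403, both on the plus strand, with 17423 bases and no annotated gene between them. Although adjacent, they had different profiles. The ratio of Ctss to Ctsk counts was 6.19 and 3.36 in the controls, 22.3 and 60.5 after light exposure and 13.1 and 3.79 with minocycline, and only the Ctss count differed widely, from 222 to 3874, while Ctsk stayed between 36 and 85. Of the other members, Ctsa and Ctsz lie on chromosome 2, Ctsc and Ctsd on chromosome 7, and Ctsh, Ctsl, Ctsb and Ctsf on chromosomes 9, 13, 14 and 19.

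For 8 of the 10 members, RefSeq promoters of build GRCm38.p6 were at hand, from 250 bases before to 50 bases after the start, in 9 windows because Ctsa has a pair of starts. They were searched on both strands for the E-box CACGTG and its extended form TCACGTGA, which the lysosomal regulators of the Tfeb family bind, and for GAGGAAGT, a motif of the myeloid factor PU.1. The extended form contains the E-box, so its matches are counted in both. CACGTG was found in 4 members (Ctsa, Ctsd, Ctsf and Ctsl) and in 7.15% of 32851 mouse promoters, and TCACGTGA in 2 (Ctsa and Ctsd) and in 0.974% of promoters. GAGGAAGT was found in 2 members (Ctss and Ctsc) and in 3.20% of promoters. Ctsk and Ctsz held none of these. A match describes letters in the window and does not show binding. The 160 bases around the RefSeq start (130 before and 30 after) are printed with matches in capitals. They are given for the adjacent pair, which differed in profile, and for Ctsd, the most abundant member.
Ctsk, chr3:95499080-95499239, plus strand, no match: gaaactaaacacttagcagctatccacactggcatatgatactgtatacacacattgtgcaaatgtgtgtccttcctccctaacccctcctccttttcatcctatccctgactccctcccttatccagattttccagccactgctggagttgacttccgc
Ctss, chr3:95526656-95526815, plus strand, capitals mark the PU.1-type motif on the opposite strand: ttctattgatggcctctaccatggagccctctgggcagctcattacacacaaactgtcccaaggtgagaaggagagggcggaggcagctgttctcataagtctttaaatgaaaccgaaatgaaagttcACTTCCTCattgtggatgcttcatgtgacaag
Ctsd, chr7:142387798-142387957, minus strand, capitals mark the extended E-box: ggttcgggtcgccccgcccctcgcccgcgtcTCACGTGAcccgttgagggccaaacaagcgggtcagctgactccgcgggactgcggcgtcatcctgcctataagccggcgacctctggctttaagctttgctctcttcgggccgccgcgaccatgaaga
The match in Ctss began 2 bases before the RefSeq start and that in Ctsd 99 bases before it. GENCODE places the start of Ctsk at 95499256, after its printed window. It places that of Ctsd at 142388038, upstream of its printed window.

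The annotation places other genes over parts of several members, and the sources used here do not state whether counting used the strand. Exons of Ctsa share 819 bases with Neurl2 and Pltp, those of Ctsb 774 bases with Fdft1 and those of Ctsz 10 bases with Nelfcd, all on the opposite strand. Exons of Ctsd share 670 bases with the predicted gene Gm49369 on the same strand, and those of Ctsl share 2137 bases with an antisense gene and a pseudogene. Reads in these stretches could have been assigned to either gene or dropped. Ctsf, Ctsh and Ctsk overlap no other annotated gene, and no exon bases are shared for Ctsc and Ctss.

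Finally, the genes most like each member in log2 CPM over the 6 libraries were listed. The closest gene to Ctsd was Ctsz with a Pearson correlation of 0.998, followed by Sfpi1, which encodes PU.1, with 0.998. For Ctsc, the list held Tom1l1, Hvcn1 and Msn, and for Ctss it held Aldh1l1, Arl5c and Evi2a, with correlations between 0.998 and 0.999. Ctsl was closest to Timp2 and Tgfb1, Ctsh to Xdh and Lyn, Ctsz to Lrp5 and Lrrc33, and Ctsb to Gbp7 and Ada. Ctsf was closest to Tmem234 with 0.997. The closest gene to Ctsk was Alas2, the heme synthesis enzyme of red cells, with a lower value of 0.971. These values come from 6 libraries in 3 groups and a choice among 14713 genes, and they describe likeness only.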

How the data were processed

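RNA of 6 retina libraries was sequenced. The authors prepared stranded poly-A libraries, mapped single reads to mm10 (GRCm38) with STAR and counted them per gene in the RNA Express workflow, and the deposited values are counts per gene, whole numbers with unequal totals, although the study calls them normalized. Versions, gene annotation and strand use in counting are not given in the sources used here, and alignment was not repeated. All 6 value columns were used (0 left out).

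Genes were compared in pairs of groups on the whole table with edgeR 4.0.16 (R 4.3.3; filterByExpr, TMM, robust quasi-likelihood F test, Benjamini-Hochberg adjustment), and an adjusted p under 0.05 was a call. SE is the log2 fold change divided by the root of F. All 10 members passed the filter in every comparison. Totals ran from 15205930 to 22856922 counts. CPM used TMM over all libraries, and log2 CPM a prior count of 2. Lengths are those of the longest principal GENCODE M21 transcript with a RefSeq match, and promoters are RefSeq's. Replicates were not identical files, and their counts differed by more than sampling noise. The correlation over genes of the replicate 1 minus replicate 2 differences between control and light was -0.01. The tests were tried on simulated data.

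Named genes are all members, the pathway and marker lists, and the genes most correlated with each member (3 each). From the resting microglia and rod lists, 1 gene each is not reported here. The members and lists were chosen with earlier results of these data known. Alternatives were DESeq2 1.42.0, edgeR without robust estimation, other scalings and filters, other call thresholds, a replicate block, a joint fit of all libraries and each library left out. Gene length from all exons was added after seeing the data.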

Additional observations from a re-analysis of the deposited data

How the results depend on the processing

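Groups of 2 allow no test for outlying libraries. Shares in parentheses are of all tested genes called in either direction. Light against control had 2 calls among the cathepsins (11.3%). The count was 8 with DESeq2 (13.3%), without robust estimation (10.8%), with scaling by total library size (14.4%) and with all 6 libraries in one fit (7.96%), 7 at an adjusted p under 0.1 (19.6%), and 1 when every library had to hold 10 counts (10.6%) or when a log2 fold change of 2 was required (2.92%). Without a filter it was again 2 (12.6%), but Ctsa was called in place of Ctsd. It ran from 0 to 8 when each library was left out (0.0269% to 14.5%). With the replicate block it was 6 (17.6%), but the replicate numbers share only a number (correlation -0.01). Minocycline against light had 0 calls (0.0542%), 7 with DESeq2 (8.12%), 2 with all 6 libraries (3.32%) and 4 at an adjusted p under 0.1 (5.98%), and from 0 to 8 with each library left out (0.0925% to 5.08%). Minocycline against control had 0 calls (0.162%), and from 0 to 1 with each library left out (0.0203% to 3.33%). No paired analysis was possible because no replicate number is known for either minocycline library. Where a group is left with 1 library, that library is assumed to vary like the other group. The direction of each member was kept in every alternative except for Ctsf, Ctsk and Ctsa near 0. The log2 difference of Ctsf between light and control was 0.038 with total library size, which moved the median of all genes to 0.24 there and to -0.17 for minocycline against light. That of Ctsf between minocycline and control was -0.0077 with DESeq2 and with its size factors, -0.0043 without a filter and -0.029 with all 6 libraries, and ran from -0.039 to 0.068 with each library left out. For Ctsa in that comparison it was -0.0058 with all 6 libraries, and it ran from -0.013 to 0.054 with each library left out. For Ctsk it ran from -0.67 to 0.19 between light and control, from -0.31 to 0.66 between minocycline and light, and from -0.61 to 0.46 between minocycline and control. The cause of these changes was not tested. Lengths of all exons together, chosen after seeing the data, lowered the share of Ctsl in the controls from 13.8% to 4.89%. Depth limits Ctsk most, at 36 to 85 counts.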
